A study of Mus musculus with 5 samples.

Results

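The cytotoxic granule genes described here are the granzymes Gzma, Gzmb, Gzmc, Gzmd, Gzme, Gzmk and Gzmm, perforin (Prf1), the granule membrane protein Nkg7 and the granule proteoglycan serglycin (Srgn). They were chosen by gene symbol: every probe set whose platform annotation names one of the 10 genes was taken, which gave 13 of 45037 probe sets, 12 with a single symbol and 1 annotated to both Gzme and Gzmd. RNA was measured on Affymetrix arrays in CD11b+ cells, called macrophages in the labels, sorted on day 8 from Matrigel, a basement membrane gel placed under the skin together with tumour cells. Tumoricidal macrophages (3 arrays) came from gel plugs holding MOPC315, a mouse myeloma line. Control macrophages (2 arrays) came from plugs holding an antigen-loss variant of that line. All hosts were Balb/c SCID mice aged 7 to 12 weeks that carried a transgenic T-cell receptor specific for the idiotype of MOPC315. SCID mice make hardly any T and B cells from their own receptor genes but keep natural killer (NK) cells, and the transgenic receptor supplies the T cells. The labels call the arrays biological replicates without saying whether each is 1 mouse or a pool, so the p-values measure the spread between these arrays.

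Cytotoxic lymphocytes kill by releasing granules toward a target cell. Perforin opens the target membrane, granzymes enter and cleave proteins there, and serglycin holds both in the granule. Granzymes and perforin are best known from NK cells and T cells, whereas serglycin is made by most blood-forming cells, macrophages and mast cells included. In bulk RNA of sorted cells, fewer cells of a type and less RNA per cell cannot be told apart.

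The signals below are the deposited intensities after each array was scaled to a common median of 18. Values at or below a floor of 4.79 have no order and were raised to the floor for the fit, so a difference against a group at the floor is a lower bound. Array medians before scaling were 15.4 to 18.7 in tumoricidal and 18 to 22.6 in control arrays. The BioC probe sets, which read a bacterial RNA added to every hybridisation, split the arrays into a high-BioC side (tumoricidal replicates 1 and 2 and control replicate 1, 609 to 683) and a low-BioC side (tumoricidal replicate 3 and control replicate 2, 166 and 173). Both sides hold both groups, so differences are also given within each side. Macrophage markers were high on all arrays: Csf1r, the receptor for the macrophage growth factor, had signals of 6685, 5913 and 6808 on the tumoricidal arrays, against 5186 and 5290 on the control arrays.

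Granule genes had higher signals in tumoricidal than in control macrophages, most of all granzymes B and A, but no difference passed the test over all probe sets. Of the 13 probe sets, 12 had differences above 0 (58.4% of all tested probe sets did), and the median log2 difference was 1.59, against 0.09 over all tested probe sets. The median of the granule probe sets depended on the floor. It was 0.30 with the floor at the median signal and 2.15 with the floor at the 10th percentile, against 0.09 over all tested probe sets in both. In 7 of the 13 all 3 tumoricidal arrays lay above both control arrays, where 13.3% of all tested probe sets showed this, and in 1 every tumoricidal array was below both control arrays, against 7.6% of all. The same 7 probe sets, of Gzma, Gzmb, Gzmc, Gzmd (2 probe sets), Prf1 and Nkg7, were higher at an unadjusted limma p under 0.05, as were 4.92% of all tested probe sets. The other Prf1 probe set was lower at an unadjusted limma p of 0.0229, where 3.07% of all tested probe sets were lower at a p under 0.05. At a Benjamini-Hochberg adjusted p under 0.05, limma called 0 of the 13 (of all tested probe sets, 0.0341% were called higher and 0.0171% lower, 0.0512% in all), with adjusted p between 0.172 and 0.995. When only probe sets with a mean signal above the median were tested, limma called Gzmb and Nkg7 higher (adjusted p = 0.0382 and 0.0455). There, 0.945% of the probe sets tested were called higher and 0.136% lower. That mean was taken over all arrays. The Nkg7 control signals, 19.8 and 15.6, were below the level needed, so Nkg7 passed this filter only through the tumoricidal arrays. The signals of 3 probe sets, 2 of Gzmd and the shared Gzme and Gzmd one, were at the floor in both control arrays, so that they could be tested only through the tumoricidal arrays.

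**Figure D1:**
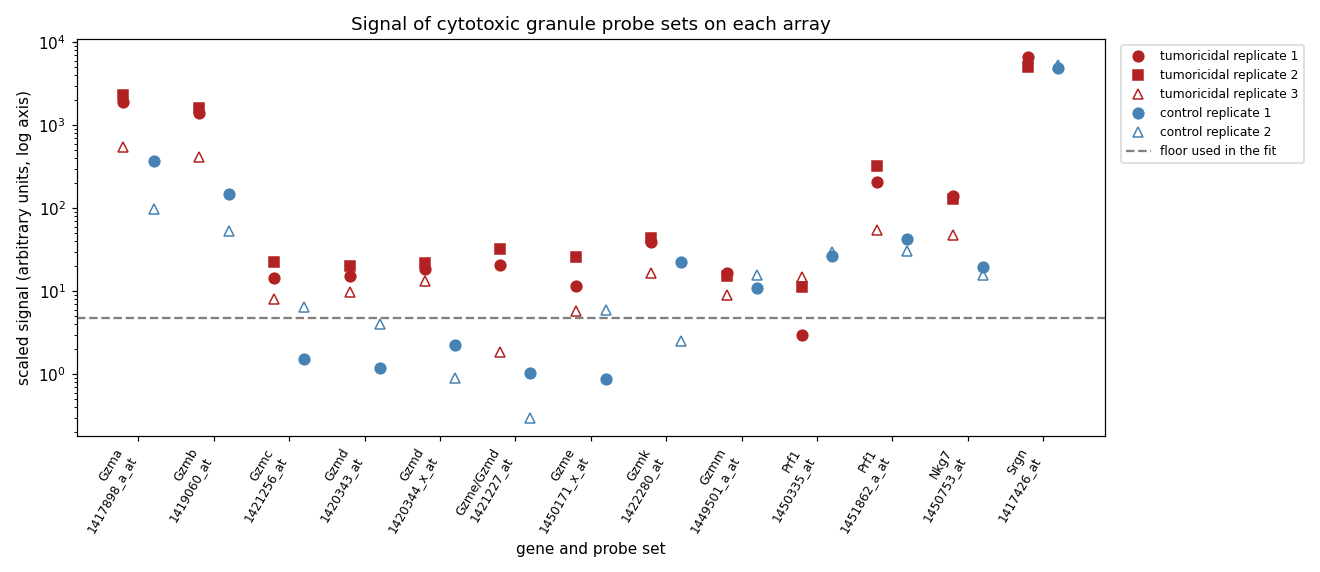
Scaled signal (log axis, arbitrary units) of each of the 13 probe sets on every array, with tumoricidal arrays in red and control arrays in blue, open triangles for the low-BioC arrays and a dashed line at the floor of 4.79. Gzma and Gzmb stand highest in tumoricidal replicates 1 and 2, while the Srgn signals of both groups lie together between 4949 and 6656.

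Granzyme B, which cleaves caspases and other proteins to start cell death, had the largest difference. Gzmb had signals of 1418, 1601 and 420 on tumoricidal arrays 1 to 3, against 150 and 52.6 on control arrays 1 and 2. All 3 tumoricidal arrays were above both control arrays, but tumoricidal replicate 3 was closer to control replicate 1 than to its own group. The log2 difference was 3.47 (SE 0.74, 95% interval 1.63 to 5.30, limma adjusted p = 0.292), an 11.1-fold higher signal with an interval from 3.10-fold to 39.5-fold. Gzmb differed by 3.33 among the high-BioC arrays and by 3.0 between the low-BioC arrays, and by 3.19 with the split as a block (SE 0.22, adjusted p = 0.145).

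Granzyme A, a tryptase-like granzyme, showed the same order of arrays. Gzma had signals of 1904, 2318 and 549 on tumoricidal arrays 1 to 3, against 369 and 97.5 on control arrays 1 and 2. The groups did not overlap, and the gap between tumoricidal replicate 3 and control replicate 1 was small beside the spread within either group. The log2 difference was 2.82 (SE 0.83, limma adjusted p = 0.463), 2.51 and 2.49 within the high-BioC and the low-BioC arrays, and 1.86 without control replicate 2. With the split as a block it was 2.5, with an SE of 0.22 and an adjusted p of 0.156.

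The low-BioC array of each group had the lower Gzma and Gzmb signal. The high-BioC arrays exceeded the low-BioC array by 1.94 (log2) for Gzma and 1.84 for Gzmb in tumoricidal macrophages, and by 1.92 and 1.51 in control macrophages. Gzmk also differed this way, by 1.35 in tumoricidal and 2.24 in control arrays. These 3 of the 13 probe sets were over 0.5 higher on the high-BioC side in both groups, as were 5.24% of all tested probe sets.

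Nkg7, a membrane protein of cytotoxic granules that is needed for efficient degranulation, had signals of 139, 130 and 48.2 on tumoricidal arrays 1 to 3, against 19.8 and 15.6 on control arrays 1 and 2. The groups did not overlap, and tumoricidal replicate 3 was again the lowest of its group. The log2 difference was 2.44 (SE 0.52, limma adjusted p = 0.292), with 2.77 and 1.63 within the high-BioC and low-BioC arrays.

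The RefSeq promoters of Gzmb, Gzma and Nkg7 are shown because these genes had the largest differences and the same division of the arrays. Each is the 250 bases before the annotated start on build GRCm38.p6, read 5′ to 3′ on the gene's strand, with matches to searched motifs in capitals. Gzmb lies at chr14:56262335-56262584 (minus strand), Gzma at chr13:113100982-113101231 (minus strand) and Nkg7 at chr7:43436888-43437137 (plus strand).
Gzmb: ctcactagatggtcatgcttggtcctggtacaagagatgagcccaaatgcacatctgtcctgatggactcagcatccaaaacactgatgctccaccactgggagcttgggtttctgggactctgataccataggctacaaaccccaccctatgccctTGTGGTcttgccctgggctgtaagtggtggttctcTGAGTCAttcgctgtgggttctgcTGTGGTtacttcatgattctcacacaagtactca
Gzma: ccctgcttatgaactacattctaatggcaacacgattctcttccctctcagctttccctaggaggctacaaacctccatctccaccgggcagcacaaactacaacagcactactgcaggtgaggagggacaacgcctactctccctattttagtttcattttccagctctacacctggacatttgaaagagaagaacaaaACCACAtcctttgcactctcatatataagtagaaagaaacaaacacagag
Nkg7: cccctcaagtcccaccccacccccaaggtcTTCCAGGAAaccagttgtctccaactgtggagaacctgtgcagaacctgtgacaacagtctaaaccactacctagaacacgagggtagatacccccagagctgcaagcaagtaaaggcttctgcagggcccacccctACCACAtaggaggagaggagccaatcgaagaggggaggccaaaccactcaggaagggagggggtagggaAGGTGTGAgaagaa
The motifs, searched on both strands, were AP-1 (TGANTCA), Runx (TGTGGT), a cAMP response element (TGACGTCA), a T-box element (AGGTGTGA, the family of T-bet and Eomes) and a GAS element (TTCNNNGAA, the site type of STAT factors). Matches of different motifs did not overlap in these windows. The Gzmb window holds an AP-1 match 58 to 52 bases before the start and Runx matches 93 to 88 and 34 to 29 bases before it. Gzma has a Runx match 50 to 45 bases before its start. Nkg7 has a T-box match 14 to 7 bases, a Runx match 83 to 78 bases and a GAS match 220 to 212 bases before its start. Runx letters were in 9 of the 12 promoter windows of the 10 genes and in 14% of all 32851 windows of this length, also in windows of Srgn and Gzmm, whose signals differed little. AP-1 letters were in 6.75%, T-box letters in 1.12%, GAS letters in 7.02% and cAMP response elements in 1.55% of all windows, the last of these in the window of Gzmc among the 10 genes. A match describes the letters and shows no binding.

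Perforin gave opposite results on its 2 probe sets. The brighter probe set of Prf1 had signals of 205, 324 and 55.3 on tumoricidal arrays 1 to 3, against 42.9 and 30.8 on control arrays 1 and 2. This probe set followed the order of arrays seen for Gzma and Gzmb, with no overlap between groups and its log2 difference was 2.09 with an SE of 0.76 (limma adjusted p = 0.581), but its difference was 2.59 among the high-BioC arrays and 0.84 between the low-BioC arrays. The dimmer probe set of Prf1 had signals of 2.95, 11.4 and 15.0 on tumoricidal arrays 1 to 3, against 26.4 and 30.0 on control arrays 1 and 2. All its tumoricidal arrays were below both control arrays, with a log2 difference of -1.59 (SE 0.52, adjusted p = 0.519). Tumoricidal replicate 1 was at the floor on this probe set, and the direction of Prf1 depends on which probe set is read.

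Granzymes C, D and E are close relatives of granzyme B. The genes from Gzme to Gzmb stand in 1 run of 7 protein-coding neighbours in RefSeq, all of them granzymes. Gzmd was read by a pair of probe sets of its own. Gzmd on the first of these had signals of 15.2, 20.3 and 9.70 on tumoricidal arrays 1 to 3, against 1.19 and 4.0, both below the floor, on control arrays 1 and 2. Its log2 difference was at least 1.59 (SE 0.36, limma adjusted p = 0.327). The other, whose _x_at suffix marks probes that can match other transcripts, had 18.4, 21.9 and 13.4 in tumoricidal arrays, against 2.23 and 0.90 in control arrays, and a log2 difference of at least 1.87 (SE 0.29, adjusted p = 0.172). Every tumoricidal array was above the floor and every control array below it on both Gzmd probe sets.

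Gzmc had signals of 14.4, 22.4 and 8.18 on tumoricidal arrays 1 to 3, against 1.51 and 6.40 on control arrays 1 and 2. The groups did not overlap, and with 1 of 2 control arrays at the floor the log2 difference was 1.32 (SE 0.47, limma adjusted p = 0.562). The difference was 1.91 among the high-BioC arrays and 0.35 between the low-BioC arrays. Gzme had signals of 11.7, 25.9 and 5.73 on tumoricidal arrays 1 to 3, against 0.88 and 6.00 on control arrays 1 and 2. Its groups overlapped, because tumoricidal replicate 3 was below control replicate 2 (1 of 2 control arrays at the floor, log2 difference 1.16, SE 0.63, adjusted p = 0.768). Without tumoricidal replicate 2, its highest array, the Gzme difference was 0.61. The probe set annotated to both Gzme and Gzmd had 20.7, 32.6 and 1.87 in tumoricidal arrays, against 1.04 and 0.30 in control arrays, so that both low-BioC arrays were at the floor (log2 difference 1.63, SE 0.81, adjusted p = 0.745, and 1.06 without tumoricidal replicate 2). All probe sets of Gzmc, Gzmd and Gzme had signals between 0.30 and 32.6, near or below the floor in control arrays, and the deposited table has no detection call.

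The Gzmd and Gzme promoters are shown because the array has a probe set that its annotation gives to both genes. They lie at chr14:56132594-56132843 and chr14:56120626-56120875 (both minus strand, GRCm38.p6), with Runx matches in capitals.
Gzmd: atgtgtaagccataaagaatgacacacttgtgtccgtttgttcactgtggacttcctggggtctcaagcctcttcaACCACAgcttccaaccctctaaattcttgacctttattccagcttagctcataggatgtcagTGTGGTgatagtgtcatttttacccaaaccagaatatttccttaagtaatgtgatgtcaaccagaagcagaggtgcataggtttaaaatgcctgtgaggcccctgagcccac
Gzme: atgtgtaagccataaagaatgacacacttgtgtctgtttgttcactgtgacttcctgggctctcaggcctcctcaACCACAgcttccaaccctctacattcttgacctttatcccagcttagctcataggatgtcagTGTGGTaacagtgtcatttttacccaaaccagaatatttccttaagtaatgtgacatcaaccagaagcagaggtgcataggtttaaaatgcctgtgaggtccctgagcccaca
In a global alignment these 250-base windows were 94.8% identical, and the Gzmd window was 81.3% and the Gzme window 81.8% identical to that of Gzmc. The Gzmb window aligned to the Gzmd window at 47.3%.

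Granzyme K, a tryptase-like granzyme, overlapped between groups. Gzmk had signals of 39.8, 44.4 and 16.5 on tumoricidal arrays 1 to 3, against 22.7 and 2.5 on control arrays 1 and 2. Control replicate 1 was above tumoricidal replicate 3, and the log2 difference was 1.56 (SE 0.77, limma adjusted p = 0.741). It was 0.44 without control replicate 2, which was at the floor, and 2.72 without control replicate 1.

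Granzyme M and serglycin differed little. Gzmm, a granzyme best known from NK cells, had signals of 16.5, 15.2 and 9.12 on tumoricidal arrays 1 to 3, against 10.8 and 15.8 on control arrays 1 and 2. The groups overlapped, with a log2 difference of 0.01 (95% interval -0.89 to 0.91, limma adjusted p = 0.995), whose sign turned with the deposited scaling (-0.22). Srgn had signals of 6656, 5091 and 6457 on tumoricidal arrays 1 to 3, against 4949 and 5248 on control arrays 1 and 2. It was high on every array, with a log2 difference of 0.24 (95% interval -0.38 to 0.86, adjusted p = 0.853) that became 0.01 with the deposited scaling and -0.03 with quantile normalization. The intervals of Srgn and Gzmm exclude the size of the Gzmb difference, whose own interval starts at 1.63.

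**Figure D2:**
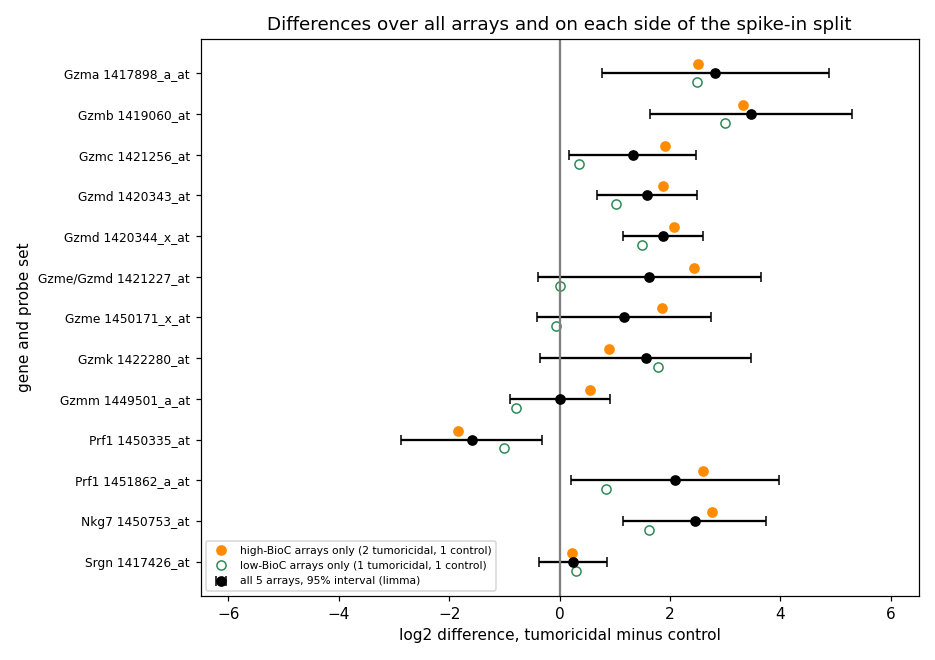
Log2 difference, tumoricidal minus control, of each probe set with its 95% limma interval (black), among the high-BioC arrays (orange) and between the low-BioC arrays (green). Gzma and Gzmb lie between 2.49 and 3.47 in all of these, whereas the differences of Gzme and of the brighter Prf1 probe set were smaller between the low-BioC arrays.

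Tumoricidal replicate 2 had the highest signal on 9 of the 13 probe sets and tumoricidal replicate 1 on 3. Control replicate 2 was lowest on 7 and control replicate 1 on 4. The 5 genes whose centred log2 profile over the 5 arrays was nearest to that of Gzmb, among 12013 genes above the floor on every array, were Gzma (root mean square difference 0.34), the chemokine Cxcl11 (0.42), the vascular endothelial growth factor receptor Flt1 (0.45), the T-cell receptor segment Trbv1 (0.51) and Nkg7 (0.64).

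Most related genes of the cytotoxic pathway had higher mean signals in tumoricidal arrays. Of 42 tested genes on the lists for granule maturation, release, inhibitors, death ligands and inducers, with the other granzymes, 38 had differences above 0 (58.4% of all tested probe sets did), with a median of 0.62. Each list gene is read by its brightest single-symbol probe set, unlike that background. Among all tested probe sets with 1 symbol, 60.7% had differences above 0, with a median of 0.11, and 14.7% were apart and higher. In 22 all 3 tumoricidal arrays lay above both control arrays and in 0 all 3 lay below them, where 13.3% and 7.6% of all tested probe sets did so. An unadjusted limma p under 0.05 was found for 14, all higher, where 4.92% of all tested probe sets were higher and 3.07% lower at that threshold. At limma's adjusted p under 0.05, 0 of the 42 were called, with the lowest adjusted p at 0.105. Gzmg, Lta and Tbx21 had both control arrays at the floor and entered the test only through the tumoricidal arrays. The lists were assembled with earlier results of these data known and share Il2rb, Eomes and Prdm1 with the marker lists.

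Among genes of granule maturation, 4 of 11 had groups that did not overlap, all higher. Cst7, cystatin F, which restrains the proteases that activate granzymes, had signals of 95.4, 109.6 and 98.9 on tumoricidal arrays 1 to 3, against 29.3 and 26.2 on control arrays 1 and 2. It was even across the tumoricidal arrays, unlike the granzymes (log2 difference 1.87, SE 0.23, limma adjusted p = 0.105). Ctsw, cathepsin W, a protease of cytotoxic lymphocytes, had 39.4, 47.1 and 23.6 in tumoricidal arrays, against 5.18 and 8.20 in control arrays (log2 difference 2.44, SE 0.40, adjusted p = 0.181). Among release genes, 4 of 10 did not overlap. The largest differences there were those of Sytl2, a synaptotagmin-like binder of Rab27a, with 1.14, and of Rab27a, the small GTPase that docks granules, with 0.88 (adjusted p = 0.598 and 0.535). Of the other granzymes, Gzmf and Gzmn were at the floor on all arrays, and Gzmg was above it in the tumoricidal arrays alone, at 5.29 to 7.41.

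Of 4 tested inhibitors of granzymes, 3 had every tumoricidal array above both control arrays, and limma called 0 (3 at an unadjusted p under 0.05). Serpinb9, the intracellular inhibitor of granzyme B, had signals of 376, 321 and 605 on tumoricidal arrays 1 to 3, against 81.1 and 86.6 on control arrays 1 and 2. Tumoricidal replicate 3, the lowest of its group for Gzmb, was the highest for Serpinb9 (log2 difference 2.32, SE 0.34, limma adjusted p = 0.153). Serpinb6b had 162, 185 and 91.9 in tumoricidal arrays, against 37.6 and 30.8 in control arrays (log2 difference 2.04, adjusted p = 0.220). Serpinb6a, the member whose difference was below 0, had 872, 486 and 1805 in tumoricidal arrays, against 731 and 2050 in control arrays, with overlapping groups (-0.42, adjusted p = 0.887).

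Of the death ligands and effector cytokines, 3 of 5 had every tumoricidal array above both control arrays. Ifng, the interferon made by activated T and NK cells, had signals of 41.6, 84.7 and 23.3 on tumoricidal arrays 1 to 3, against 10.9 and 1.60 on control arrays 1 and 2 (1 of 2 control arrays at the floor, log2 difference 2.59, SE 0.64, limma adjusted p = 0.365). Fasl, which triggers death through Fas, had 43.4, 33.7 and 15.9 in tumoricidal arrays, against 11.1 and 3.10 in control arrays (1 of 2 at the floor, 1.97, adjusted p = 0.450). Both had their lowest tumoricidal signal in replicate 3 and the lower control signal in replicate 2, as did Gzma and Gzmb. Among inducers, 7 of 11 had groups apart. Eomes, a T-box factor of NK and memory T cells, had 54.7, 57.6 and 29.0 in tumoricidal arrays, against 11.8 and 1.60 in control arrays (1 of 2 at the floor, 2.58, adjusted p = 0.257). Il12a, a subunit of a cytokine that myeloid cells make to activate NK and T cells, ran the other way among tumoricidal arrays, with 25.9, 44.6 and 99.6 in replicates 1 to 3, against 1.19 and 6.10 on control arrays 1 and 2 (1 of 2 at the floor, 3.17, adjusted p = 0.220).

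**Figure D3:**
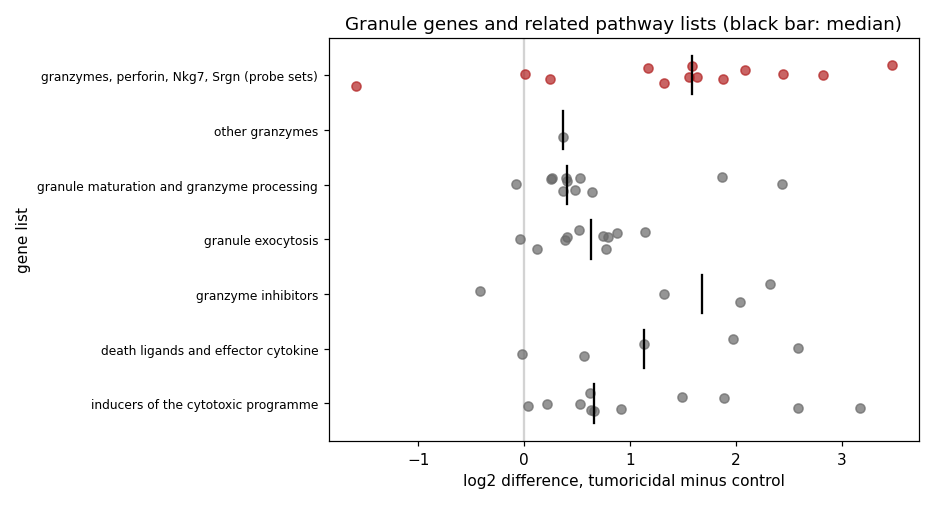
Log2 difference, tumoricidal minus control, of the 13 granule probe sets (red) and of the tested genes of each pathway list (grey, 1 point a gene), with a black bar at the median. The granule probe sets have a median of 1.59, the granzyme inhibitors 1.68 and the maturation genes 0.41.

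Of 15 tested NK cell markers, 8 had every tumoricidal array above both control arrays (13.3% of all tested probe sets did), and limma called 0 (7 at an unadjusted p under 0.05). Klrc1, Klra1, Klra7 and Klra8 had both control arrays at the floor and entered the test only through the tumoricidal arrays. Cd244a and Ncam1 had differences below 0 (-0.94 and -0.15), with overlapping groups. Ncr1, the activating receptor NKp46, had signals of 81.1, 38.8 and 24.1 on tumoricidal arrays 1 to 3, against 9.72 and 7.60 on control arrays 1 and 2. Klrc1, the receptor NKG2A, had 51.9, 38.8 and 32.1 in tumoricidal arrays and was at the floor in both control arrays (at least 3.07, limma adjusted p = 0.0577). Klrb1a was above the floor in all 3 tumoricidal arrays and in 1 of 2 control arrays. Klrb1b had 153, 208 and 243 on tumoricidal arrays 1 to 3, against 29.5 and 25.4 on control arrays 1 and 2 (2.85, limma adjusted p = 0.0660). Its highest array was tumoricidal replicate 3, the lowest of its group for Gzmb. The list's summed signal was 4794 to 7208 in tumoricidal and 3681 to 4718 in control arrays, most of it from Tyrobp, which macrophages also make. Without Tyrobp, a sum taken after the values were seen, it was 919 to 1267 in tumoricidal and 259 to 409 in control arrays. The largest member of that sum was Klrk1 on each tumoricidal array and Cd244a on each control array. Klrk1 had 593, 304 and 425 on tumoricidal arrays 1 to 3, against 78.3 and 69.7 on control arrays 1 and 2.

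The listed markers of T cells had their highest summed signal in tumoricidal replicate 2. Of 15 T-cell markers, 4 had groups apart and higher (13.3% of all tested probe sets did), limma called 0 (1 at an unadjusted p under 0.05), and Cd4 and Cd28 had differences below 0 (-0.26 and -0.09). Cd8b1 had both control arrays at the floor and entered the test only through the tumoricidal arrays. Cd3e, a chain of the CD3 complex, had signals of 8.75, 196 and 9.58 on tumoricidal arrays 1 to 3, against 8.44 and 2.60 on control arrays 1 and 2. Cd3d had 22.8, 397 and 20.8 in tumoricidal arrays, against 30.0 and 11.3 in control arrays. Cd3g had 31.5, 185 and 25.9 in tumoricidal arrays, against 14.3 and 8.5 in control arrays, and Cd247, the zeta chain, had 12.7, 103 and 11.7, against 5.18 and 1.30. The list's summed signal was 457, 2044 and 271 on tumoricidal arrays 1 to 3, against 287 and 303 on control arrays 1 and 2. Tumoricidal replicate 2 was the highest array for each of these 4 chains and for the sum. Between tumoricidal replicate 1 and control replicate 1 the markers differed in direction. Cd3d, Cd4, Cd5, Cd28, Icos and Bcl11b were lower in tumoricidal replicate 1. Cd3e, Cd3g, Cd247, Cd8a, Cd2, Lat and Zap70 were higher there, Cd3e only slightly (8.75 against 8.44). Cd6 and Cd8b1 were at the floor on both arrays. Without tumoricidal replicate 2 the log2 difference was 3.12 for Gzmb, 2.43 for Gzma and 2.22 for Nkg7. Probe sets of T-cell receptor segments, picked after their values were seen, are not on this list and are described below. Of 14 tested, 7 had every tumoricidal array above both control arrays, among them the brighter one of Trbv1 (927, 2749 and 552, against 254 and 65.5).

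Macrophage markers had a smaller median difference than the granule probe sets. Of 14, 3 had groups apart and higher, a share near the 13.3% of all tested probe sets, and limma called 0 (0 at an unadjusted p under 0.05). The median was 0.30. Itgam, the CD11b gene used for the sort, had 865, 466 and 1135 on tumoricidal arrays 1 to 3, against 417 and 931 on control arrays 1 and 2; the groups overlapped. Adgre1, which encodes F4/80, had 1750, 1334 and 1879 in tumoricidal arrays, against 793 and 1699 in control arrays. Fcgr1, a high-affinity receptor for IgG, had the largest difference of the list, 0.51 (adjusted p = 0.752). The summed macrophage signal was 43085 to 64023 in tumoricidal and 41284 to 54376 in control arrays.

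**Figure D4:**
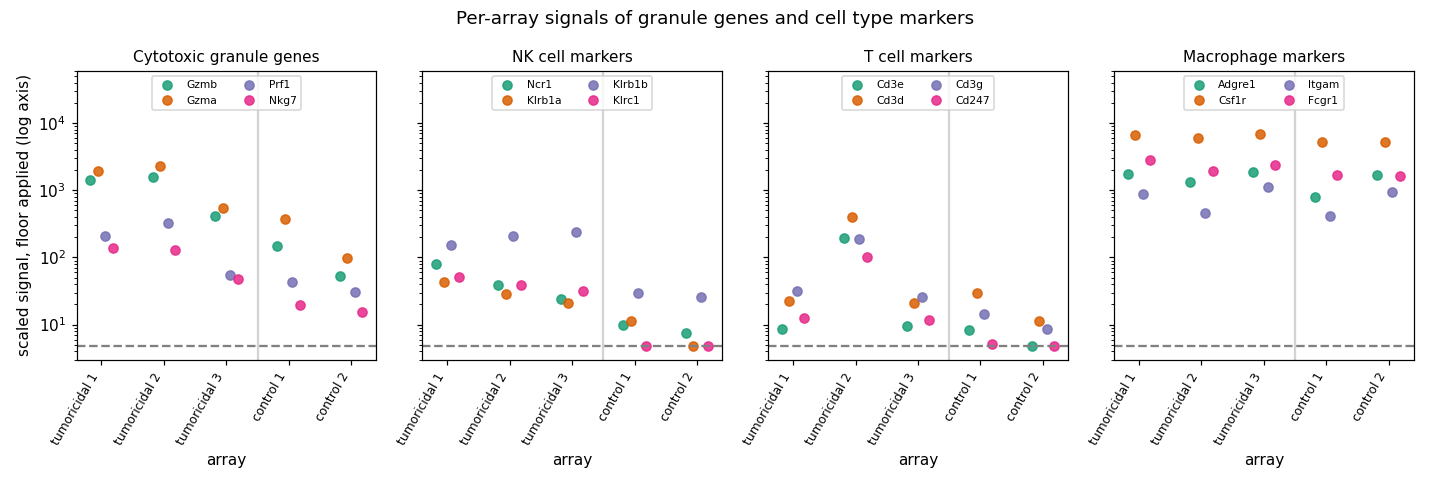
Scaled signal (log axis, values below 4.79 drawn at the floor) of 4 granule genes, 4 NK cell, 4 T cell and 4 macrophage markers on each array, tumoricidal arrays left of the grey line. The granule genes are high in tumoricidal replicates 1 and 2, whereas the CD3 chains are high in tumoricidal replicate 2 alone.

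Markers of other cell types that a CD11b sort could hold are read against the same 13.3% of all tested probe sets that were apart and higher and 7.6% apart and lower. Mcpt8, a basophil protease, had signals of 76.1, 49.4 and 58.3 on tumoricidal arrays 1 to 3, against 7.49 and 0.30 on control arrays 1 and 2 (1 of 2 control arrays at the floor, log2 difference 3.33, limma adjusted p = 0.0608), while the mast cell protease Mcpt4 was at the floor on every array. Cpa3, a mast cell carboxypeptidase, overlapped between groups (0.82), and Ms4a2, a chain of the IgE receptor, was at the floor in both control arrays (at least 1.70). Of 12 tested mast cell and basophil markers, 5 were apart and higher, Ms4a2 among them (summed signal 589 to 814 in tumoricidal and 226 to 311 in control arrays). Ms4a2, Fcer1a and Mcpt2 had both control arrays at the floor and entered the test only through the tumoricidal arrays. Of 9 neutrophil markers, 6 were apart and higher (9226 to 10326 in tumoricidal and 3936 to 6614 in control arrays). In that list Cxcr2 differed by 1.47, Lcn2 by 1.22, S100a8 by 1.0 and S100a9 by 0.91, while the granule enzymes Mpo and Elane had differences of -0.29 and -0.35 with overlapping groups. Of 8 dendritic cell markers, 2 were apart and higher and 1 lower, with Itgax at 1.89, Zbtb46 at -0.08, Flt3 at -0.12 and Siglech at -1.66. Of 5 eosinophil markers 1 was apart and higher (Siglecf, 2.28), while Epx (0.53), Prg2 (0.27), Il5ra (-0.48) and Ccr3 (-0.63) overlapped. Of 12 B-cell and plasma-cell markers, 6 were apart and lower and 2 higher, with Pou2af1 at -3.24, Jchain at -2.80, Cd79b at -0.91, Cd79a at -0.19 and Ms4a1 at 0.27. None of these lists had a call over all probe sets. The part of NK cells, T cells or any other cell type in the granule gene signals was not tested.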

How the data were processed

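CD11b+ cells were sorted by FACSAria, RNA was taken up in Trizol, and 6 µg of it served to make the labelled cRNA for each array, per the labels' protocols. For 5 arrays the authors deposited linear intensities, 1 value a probe set. No source used here names the software or the scaling, but the trimmed mean (2% off each end) was 100 on every array. Here, 64 control probe sets were removed, each array was scaled to the median of array medians, values were raised to the pooled 25th percentile, and log2 was taken; 41053 of 45037 probe sets were above the floor on some array and were tested with limma 3.58.1 (lmFit, eBayes, two-sided) in R 4.3.3, adjusted over all of them. Further steps used Python 3.11.15 and matplotlib 3.10.9. On simulated data of this comparison over 41053 probe sets, 19% of those changed by log2 2 and 70% of those changed by log2 4 were recovered, with 4 false calls. The changed probe sets were drawn only from those with a mean above the median. The recovery therefore does not cover dimmer probe sets, such as those of Gzmc, Gzmd, Gzme, Gzmk and Gzmm and the dimmer one of Prf1. Arrays give no counts; their number limits precision.

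Symbols came from the platform annotation, and 10 of 10 gene symbols matched RefSeq GRCm38.p6. List genes are represented by their single-symbol probe set with the highest mean log2; all probe sets of the granule genes are given. Named list genes are the 2 with the largest absolute difference per list and, for marker lists, also the first 3 with a probe set; others named, such as Tyrobp, Serpinb6a, Cd244a, Ncam1, Cd28, Lta and Elane, were picked after their values were seen. Genes, lists and tests were chosen with earlier results of these data known. Left out arrays, scalings, floors, a dim-probe filter, limma with trend, and blocks by replicate number and spike-in split were tried as alternatives. Deviations from group means correlated at 0.0235 between the arrays numbered 1 and at -0.237 between those numbered 2. The deviations of 2 control arrays mirror each other, so these values cannot decide whether the replicate numbers pair the arrays.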

Additional observations from a re-analysis of the deposited data

How the results depend on the processing

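Leaving out 1 array at a time, limma called 0 to 0 probe sets higher and 0 to 0 lower, against 14 and 7 with all arrays, and 0 were called with the replicate block, with the spike-in split as a block, or with the floor at the 10th percentile. With 1 control array left, it was assumed to vary like the tumoricidal arrays. The filter to probe sets whose mean lies above the median gave 194 higher and 28 lower calls (0.945% and 0.136% of 20526). There, limma called 2 granule probe sets, Gzmb (adjusted p = 0.0382) and Nkg7 (adjusted p = 0.0455), and 4 of the granule probe sets tested had groups apart. It also called 5 pathway genes (Cst7, Serpinb9, Serpinb6b, Eomes and Il15ra, the last picked after its values were seen) and 7 markers. The filter's mean is over all arrays, and Nkg7, Eomes and the marker Mcpt8 passed it only through the tumoricidal arrays. Control signals were 11.8 and 1.60 for Eomes and 7.49 and 0.30 for Mcpt8. The floor at the median called 48 higher and 12 lower, 1 pathway gene (Cst7) and 2 markers (Pou2af1 and Klrb1b), with 4 granule probe sets apart. With that floor the 2 Gzmd probe sets had log2 differences of 0.06 and 0.11, while Gzma and Gzmb kept 2.82 and 3.47. Limma with trend called 58 higher, 7 lower and 3 markers (Pou2af1, Itgax and Klrb1b). The deposited scaling and quantile normalization each called 1 marker, Pou2af1. No granule probe set was called under any alternative but the filter to probe sets above the median.

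Over arrays left out, 7 to 10 granule probe sets had all tumoricidal arrays higher, and Gzmb had its lowest value, 2.71, when control replicate 2 was left out and its highest, 4.23, when control replicate 1 was. The same arrays gave 1.86 and 3.78 for Gzma. With the replicate block Gzmb was 4.08 and Gzma 3.47, and beside the fall of all calls to 0 the block changed no count of granule, pathway or marker calls, which were 0 without it. Gzmm, 0.01 in the test of all arrays, fell on the other side of 0 under several settings: -0.22 with the deposited scaling, -0.027 with the split as a block, -0.79 between the low-BioC arrays, -0.15 without tumoricidal replicate 1, -0.09 without tumoricidal replicate 2 and -0.26 without control replicate 1. It was 0.28 without control replicate 2. Srgn was -0.031 with quantile normalization and Gzme -0.067 between the low-BioC arrays. The median of all tested probe sets was 0.09, and -0.11 with the deposited scaling. Where a cause is not given, the cause was not tested.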

Other observations

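Probe sets annotated to T-cell receptor segments were picked after their values were seen. Of 18, 14 were above the floor on some array, and 7 of these had every tumoricidal array above both control arrays, where 13.3% of all tested probe sets did (0 called by limma). One annotated to Trav9d-3 had signals of 398, 1909 and 251 in tumoricidal replicates 1 to 3, against 204 and 36.6 in control replicates 1 and 2 (log2 difference 2.74, adjusted p = 0.617). Trbv1 had 927, 2749 and 552 in tumoricidal arrays, against 254 and 65.5 in control arrays (3.12, adjusted p = 0.419). Tumoricidal replicate 2 was highest on both, as for the CD3 chains, and the remaining arrays kept the order seen for Gzma and Gzmb. The suffix of these probe sets marks probes that can match other transcripts. A dimmer Trbv1 probe set, without that suffix, had 14.3, 11.2 and 0.58 in tumoricidal arrays, against 12.3 and 6.0 in control arrays. Its groups overlapped (log2 difference 0.09). Several of the 7 probe sets with groups apart were annotated to Trav9d-3, so they do not stand for as many segments. Among these, 1 had control signals of 2.39 and 0.5, both at the floor.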
